A study of Mus musculus with 8 samples.

Results

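The genes examined here are 37 genes of the ATF4 response, amino acid supply and tRNA charging, chosen by symbol for their known function, out of 54532 genes listed in 4T1 cells. All 37 were found by symbol, and 36 of them passed the filter on low counts (more than 1 CPM, the usual count scaled to library size, in at least 2 libraries), as did 12704 genes in all. 4T1 is a mouse triple-negative breast cancer cell line. Poly(A) RNA was sequenced from 4T1 cells that were stably transfected with either a scramble shRNA or an shRNA against MCT-1 (shMCT-1), each as 1 puromycin-selected line kept in 6 µg/ml puromycin, so that any difference between the lines other than MCT-1 cannot be told apart from silencing. Both lines received control IgG or 100 ng/ml anti-IL-6R, an antibody against the mouse IL-6 receptor, and were collected after 48 h. Each of the 4 groups, named scramble + IgG and so on, was sequenced in 2 libraries, which the submitters call independent biological replicates. The p-values measure the spread between such libraries of the same line.

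ATF4 is a transcription factor whose mRNA is held poorly translated by short upstream reading frames until the initiation factor eIF2 is phosphorylated by one of the stress kinases PERK, GCN2, PKR or HRI. ATF4 protein then binds composite C/EBP-ATF response elements (CARE), often with a C/EBP partner, and turns on genes for amino acid uptake, serine, glycine and asparagine synthesis, tRNA charging, and stress regulators that can end the response. MCT-1, with its partner DENR, is known to recycle ribosomes and to help them start again after short upstream reading frames, including those of Atf4. RNA counts do not measure the translation of Atf4 or the amount of its protein. In bulk RNA, fewer cells that express a gene and less of its RNA per cell cannot be told apart.

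The CARE letters were looked for in the promoters of these genes, since CARE is the element that ATF4 is known to bind. Promoter sequences (250 bases before and 50 after the start) came from RefSeq on GRCm38.p6, where 33 of the 37 genes matched by symbol (no entry was matched for Slc7a5, Slc1a5, Wars and Nars). TGATGNAAN, read on both strands, was present in 13 of the 33 promoters (39.4%) and in 1215 of 27025 promoters in the table (4.5%). Its strict form TGATGCAAT, which is counted in the former too, was in 4 of 33 (12.1%) against 60 of 27025 (0.222%). The endoplasmic reticulum stress element, CCAAT and CCACG with 9 bases between them on either strand, was found in 0 of 33 and in 37 of 27025 (0.137%). The members were chosen as known ATF4 targets, so that the larger share is a description and no independent result, and a match is no proof of binding. The windows that follow, for 11 tested members, hold each match in capitals with 10 bases on either side, 5′ to 3′ on the strand of the gene, with the position of the first capital letter counted from the RefSeq start as 0. They are shown so that members moving in opposite directions can be compared at the sequence that ATF4 is known to read.
Asns (-23): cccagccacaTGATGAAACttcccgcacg, chr6:7693214-7693242, minus strand.
Atf3 (-111): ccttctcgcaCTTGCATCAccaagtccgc, chr1:191183426-191183454, minus strand.
Nupr1 (-111): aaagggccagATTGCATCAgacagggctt, chr7:126625563-126625591, minus strand.
Gars (-31): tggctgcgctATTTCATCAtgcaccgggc, chr6:55037960-55037988, plus strand.
Yars (3): cgagctcagcTGATGCAACccgacgggac, chr4:129189896-129189924, plus strand.
Slc7a11 (-66 and -48): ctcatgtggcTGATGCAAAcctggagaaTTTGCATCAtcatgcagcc, chr3:50443643-50443689, minus strand.
Chac1 (-194): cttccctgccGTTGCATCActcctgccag, chr2:119351038-119351066, plus strand.
Trib3 (13): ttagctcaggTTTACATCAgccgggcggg, chr2:152344029-152344057, minus strand.
Iars (6): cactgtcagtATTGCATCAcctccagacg, chr13:49682126-49682154, plus strand.
Pycr1 (-103): gccctgtgtaTGATGCAATgcacaaggct, chr11:120643833-120643861, minus strand.
Tars (-16): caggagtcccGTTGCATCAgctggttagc, chr15:11399656-11399684, minus strand.
The first 5 belong to genes that were higher in shMCT-1 cells, the next 4 to genes that were lower, and the last 2 to genes that were not called, as given below. Less the median log2 fold change of the tested genes on their chromosome, the 5 higher genes ranged from 0.33 (Yars) to 0.98 (Asns). Of the 4 lower genes, Slc7a11 was then at -2.00, Chac1 at -0.17, Iars at -0.06 and Trib3 at 0.05. Of the 20 members whose promoter held no match, 8 were higher, 5 were lower and 7 were not called. Among all genes tested, 34.9% were higher and 34% lower. Slc7a11 carried 2 matches on opposite strands with 9 bases between them. Vldlr, which was not tested, held a match as well. Among the promoters shown, the strict letters stood in Nupr1, which was higher, Iars, which was lower, and Pycr1, which was not called.

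Library totals ran from 19839299 to 33063570 counts, and each shMCT-1 library was shallower than each scramble library. Levels are in CPM scaled by TMM factors (0.976 to 1.027), which stood on 19.8 to 33.1 counts per 1 CPM. Epithelial markers (Epcam, Cdh1, Krt8, Krt18 and Krt7) summed to 2320 to 2440 CPM in scramble and 3120 to 3420 CPM in shMCT-1 libraries. Of these, Epcam had the largest fold (12.1-fold, from a mean of 4.30 to 52.2 CPM) and Krt8 the largest difference in CPM. Leukocyte markers summed to 2.71 to 3.44 and 5.55 to 7.7 CPM, with Adgre1 and Cd3e at 0 in every library, and endothelial markers to 0.0945 to 0.332 and 0.569 to 1.94 CPM. Fibroblast markers, mainly Pdgfra, summed to 15 to 17 and 13 to 16.6 CPM. Within these sums, the fibroblast marker Col1a1 was 3.17-fold and the endothelial marker Cdh5 30.9-fold higher in shMCT-1 cells, the latter near the floor. The part of these differences in the results was not tested. Pgr, which codes for the progesterone receptor, was at 0 in all libraries. Esr1 and Erbb2, for the estrogen receptor and HER2, passed the filter and were higher in shMCT-1 cells. Their log2 fold changes were 0.58 and 0.26 (adjusted p = 0.00266 and 0.00231 by edgeR's quasi-likelihood test). Together the 3 genes summed to 57.9 to 60.5 CPM in scramble and 66.8 to 77.2 CPM in shMCT-1 libraries. Mcts1, the gene for MCT-1, was at 15.0 and 11.8 CPM in scramble + IgG, 12.6 and 13.2 in scramble + anti-IL-6R, 6.42 and 6.29 in shMCT-1 + IgG, and 6.88 and 4.99 in shMCT-1 + anti-IL-6R. All shMCT-1 libraries were thus lower than all scramble libraries, as their labels say (exact permutation test of 4 against 4, two-sided p = 0.0286, the smallest it can give). The log2 fold change was -1.10 ± 0.12 (standard error, SE) and the adjusted p = 7.54e-06 by edgeR's quasi-likelihood test, which gives all adjusted p-values that follow. Reads of Mcts1 may be shared with its retrocopy Mcts2, which fell too, as given below.

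Silencing was compared across both treatments (4 shMCT-1 against 4 scramble libraries, with the antibody as a term in the model). A gene was called where its p-value, adjusted by the Benjamini-Hochberg method over all 12704 genes, was under 0.05. Of the 36 genes tested, 14 were higher in shMCT-1 cells, 10 were lower and 12 were not called. Among all genes tested, 34.9% were called higher and 34% lower, so that the 66.7% of members called did not exceed the 68.9% of all genes. The counts by role and by list that follow for this comparison are to be read beside these shares. The median log2 fold change was 0.04 for the members and 0.0099 for all genes. The genes that rose included Stc2 (4.01-fold), Psph (2.10-fold), Asns (2.03-fold) and Atf3 (2.01-fold), and those that fell were led by the cystine transporter gene Slc7a11 (0.27-fold) and the transcription factor gene Cebpb (0.41-fold). These were the 6 members with a fold of at least 2 in either direction. The heat map gives every tested member in every library.

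**Figure D1:**
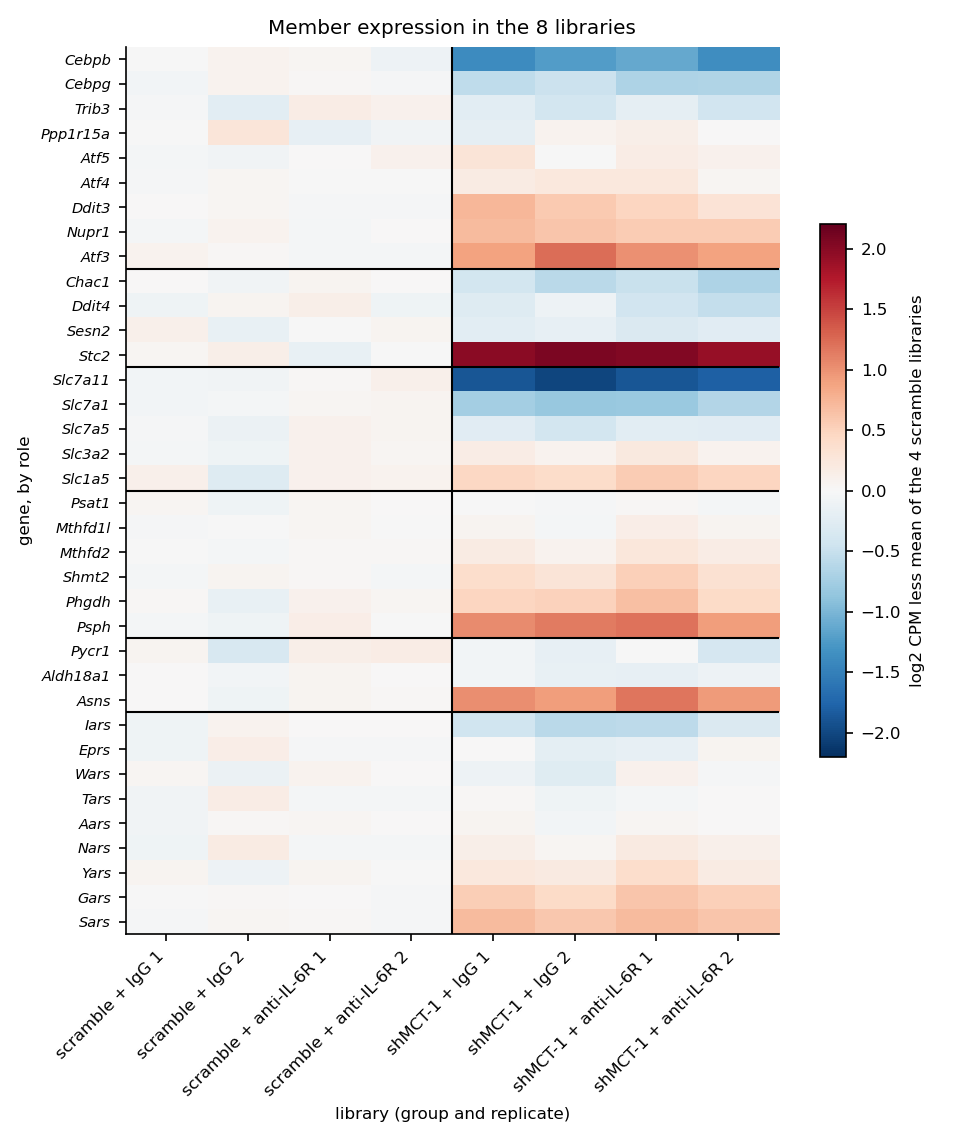
Heat map of the 36 tested members (rows, grouped by role and split by black lines) in the 8 libraries (columns), coloured by log2 CPM less the mean of the 4 scramble libraries. Stc2, Psph, Asns and Atf3 are red and Slc7a11 and Cebpb are blue in all 4 shMCT-1 libraries, while rows such as Psat1 and Aars stay pale throughout.

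**Figure D2:**
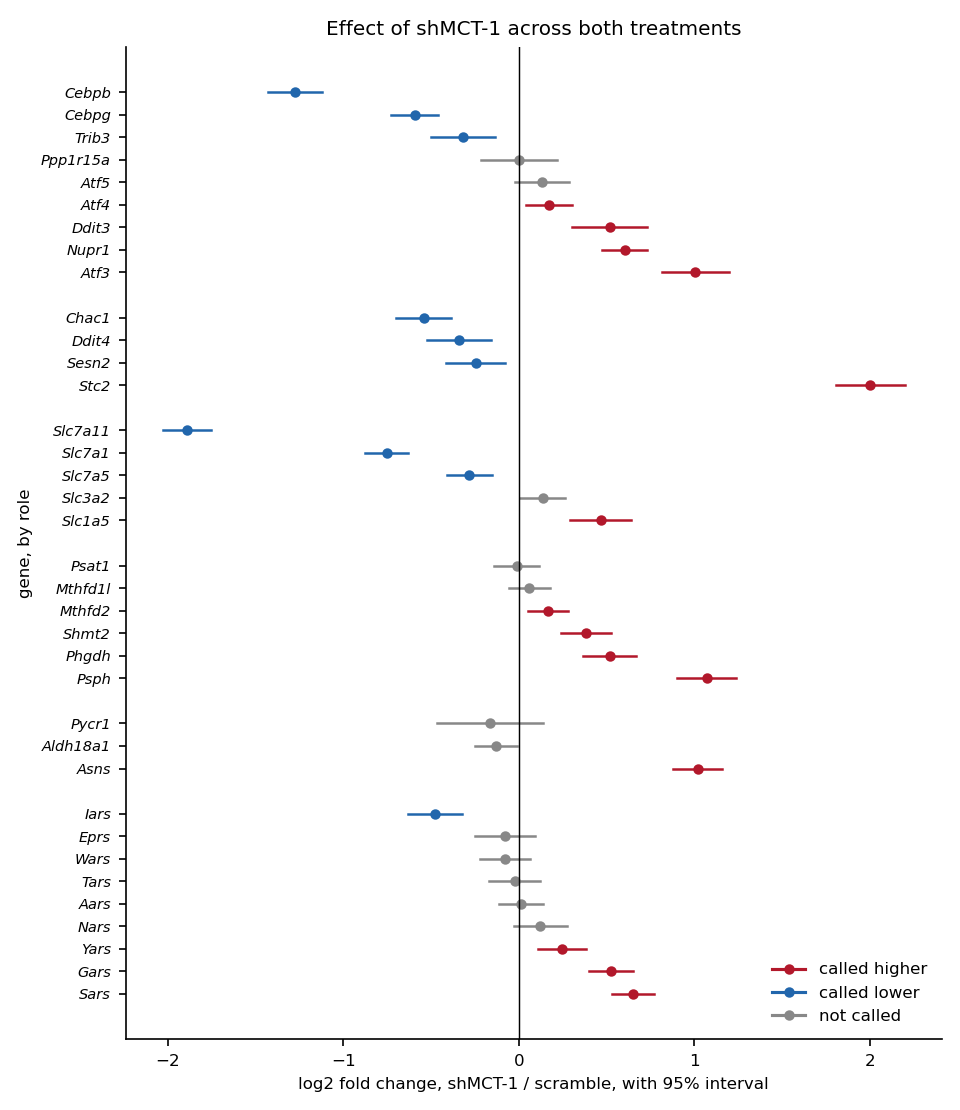
Log2 fold change of shMCT-1 over scramble across both treatments (points, x axis) with 95% intervals (lines) for the 36 tested members, grouped by role on the y axis and coloured by the call at an adjusted p-value under 0.05. The points run from -1.89 for Slc7a11 to 2.00 for Stc2, with 14 called higher, 10 called lower and 12 not called.

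Among the transcription factors and feedback regulators, 4 of 9 were higher, 3 were lower and 2 were not called. Atf4 itself (ENSMUSG00000042406, chromosome 15 of GRCm38, 80255184 to 80257541, plus strand) was at 453 and 472 CPM in scramble + IgG, 457 and 456 in scramble + anti-IL-6R, 520.1 and 542 in shMCT-1 + IgG, and 537 and 472 in shMCT-1 + anti-IL-6R. The last of these shMCT-1 libraries lay within the scramble range, so the groups overlapped. The log2 fold change was 0.17 ± 0.06 (SE, adjusted p = 0.0234), a rise of 12.6%, and the exact permutation test gave p = 0.0571. The call was lost when any 1 of 6 of the 8 libraries was left out, and held only without scramble + IgG replicate 2 or without shMCT-1 + anti-IL-6R replicate 2 (adjusted p from 0.00739 to 0.0748 over all alternatives). The median gene of chromosome 15 differed by a log2 value of 0.17 as well, which leaves 0.0016 for Atf4. Its protein was not measured here.

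Atf3, a repressor and activator induced by ATF4, was at 12.6 and 12.1 CPM in scramble + IgG, 11.6 and 11.6 in scramble + anti-IL-6R, 22.0 and 28.2 in shMCT-1 + IgG, and 23.9 and 22.0 in shMCT-1 + anti-IL-6R. Each shMCT-1 library was higher than each scramble library, with a log2 fold change of 1.01 ± 0.09 (SE, adjusted p = 1.78e-06). Ddit3, which codes for CHOP, the factor tied to cell death in prolonged stress, was low in all libraries (at most 236 counts), at 6.66 and 6.84, 6.49 and 6.54, 10.98 and 9.85, and 9.15 and 8.18 CPM in the same order of groups. These values did not overlap between backgrounds either, and the log2 fold change was 0.52 ± 0.10 (SE, adjusted p = 0.00057). Its symbol has another, overlapping gene identifier, which held less than 1 count here. Nupr1, a small stress-induced chromatin protein, stood at 32.4 and 35.4, 32.6 and 33.5, 54.4 and 50.9, and 49.0 and 49.2 CPM. It was higher in every shMCT-1 library (log2 fold change 0.60 ± 0.06, SE, adjusted p = 4.24e-06).

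The genes Cebpb and Cebpg went the other way. Cebpb (ENSMUSG00000056501, chromosome 2, 167688915 to 167690418, plus strand), a dimer partner of ATF4 at CARE sites and a mediator of IL-6 responses, was at 363 and 383 CPM in scramble + IgG and 377 and 339 in scramble + anti-IL-6R. It was at 140.0 and 155 in shMCT-1 + IgG and 166 and 142 in shMCT-1 + anti-IL-6R, below every scramble library (log2 fold change -1.28 ± 0.07, SE, adjusted p = 7.29e-08). Cebpg, another C/EBP partner of ATF4, ranged from 62.2 to 68.3 CPM in scramble and 40.8 to 46.6 CPM in shMCT-1 libraries and also fell (-0.59 ± 0.06, SE, adjusted p = 6.32e-06). The plot of levels by library shows Atf4 and Cebpb side by side.

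Trib3, a pseudokinase that is induced by ATF4 and CHOP and restrains them, was at 48.8 and 42.3, 55.3 and 52.6, 42.0 and 37.2, and 43.3 and 36.8 CPM in the 4 groups. Its highest shMCT-1 library was above its lowest scramble library, so that the groups overlapped. It was called lower (log2 fold change -0.32 ± 0.08, SE, adjusted p = 0.00492), with an exact permutation p = 0.0571. Trib3, Cebpb and Chac1 lie on chromosome 2, whose 1001 tested genes had a median log2 fold change of -0.37. Less that median, Trib3 was at 0.05, Chac1 at -0.17 and Cebpb at -0.91. Why the median gene of this chromosome differed was not tested. Ppp1r15a, which codes for GADD34, the subunit that directs the phosphatase to eIF2, did not pass the test (0.0031 ± 0.10, SE, 95% interval -0.21 to 0.22), nor did the regulator Atf5 (0.13 ± 0.07, SE, adjusted p = 0.114).

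**Figure D3:**
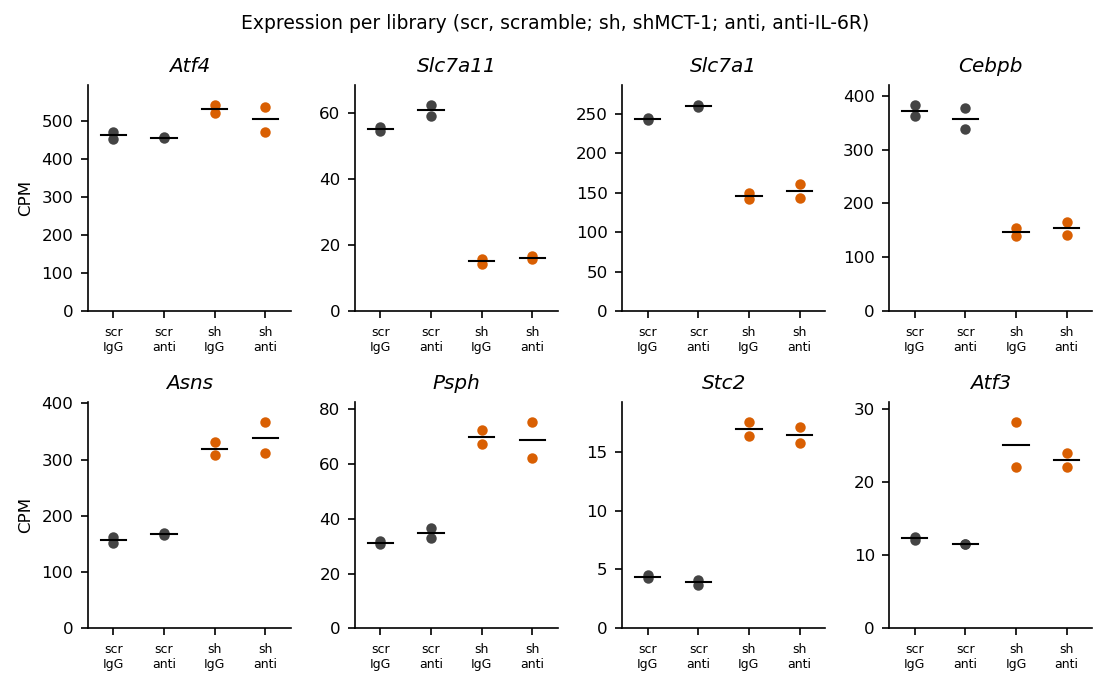
TMM-scaled CPM (y axes, each from 0) of 8 members in the 4 groups (x axis), with 1 point per library and a bar at the mean of the 2 libraries. Grey scramble and orange shMCT-1 points overlap for Atf4 only, where the lowest shMCT-1 library is at 472 CPM, and they stand well apart for Slc7a11, Slc7a1, Cebpb, Asns, Psph, Stc2 and Atf3.

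Of the stress and growth effectors, 1 of 4 tested genes was higher and 3 were lower. Stc2 (ENSMUSG00000020303, chromosome 11, 31357307 to 31370074, minus strand) codes for stanniocalcin, a secreted glycoprotein induced by stress. It was at 4.25 and 4.52 CPM in scramble + IgG, 3.72 and 4.15 in scramble + anti-IL-6R, 16.4 and 17.5 in shMCT-1 + IgG, and 17.1 and 15.7 in shMCT-1 + anti-IL-6R. The gap between backgrounds was far wider than that between replicates, with a log2 fold change of 2.00 ± 0.09 (SE, adjusted p = 1.33e-08). Chac1, which degrades glutathione and is a sensitive ATF4 target, was at 47.5 and 45.1, 49.7 and 47.5, 35.7 and 31.3, and 33.7 and 29.7 CPM. All 4 shMCT-1 libraries were lower than all scramble libraries (log2 fold change -0.54 ± 0.07, SE, adjusted p = 3.96e-05). Ddit4, the mTORC1 inhibitor REDD1, was at 127 and 141, 147 and 126, 111 and 124, and 100.2 and 93.3 CPM, and was lower by a log2 value of -0.34 ± 0.08 (SE, adjusted p = 0.00313). Its 2 backgrounds came close to each other, at 124 and 126 CPM, without overlap. Sesn2, a leucine-sensing mTORC1 inhibitor, ranged from 21.9 to 26.4 CPM in scramble and 19.8 to 21.5 CPM in shMCT-1 libraries (-0.25 ± 0.08, SE, adjusted p = 0.0135). Vldlr, a lipoprotein receptor, had 0 counts in every library and was not tested, for which 3 counts would allow up to 0.151 CPM in the shallowest library.

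Among the amino acid transporters, 3 of 5 were lower, 1 was higher and 1 was not called. Slc7a11 (ENSMUSG00000027737, chromosome 3, 49892526 to 50443614, minus strand) codes for xCT, which brings in cystine for glutathione synthesis in exchange for glutamate. Its levels were 55.7 and 54.6 CPM in scramble + IgG, 59.2 and 62.4 in scramble + anti-IL-6R, 15.8 and 14.3 in shMCT-1 + IgG, and 15.8 and 16.6 in shMCT-1 + anti-IL-6R. No shMCT-1 library came near the scramble range, and the fall had a log2 value of -1.89 ± 0.06 (SE, adjusted p = 1.37e-09), to 0.27-fold. This was the largest fall among the members. Whether the CARE matches in its promoter bear on the fall was not tested.

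Slc7a1, the main carrier of arginine and lysine, was at 242 and 244, 259 and 261, 150.1 and 142, and 143 and 162 CPM. Every shMCT-1 library was below every scramble library (log2 fold change -0.75 ± 0.06, SE, adjusted p = 6.03e-07). Slc7a5 codes for LAT1, which takes up leucine and other large neutral amino acids. It ranged from 476 to 551 CPM in scramble and 390 to 442 CPM in shMCT-1 libraries and was lower by a log2 value of -0.28 ± 0.06 (SE, adjusted p = 0.00125). Slc1a5, the glutamine carrier ASCT2, was higher, at 223 and 168, 219 and 215, 282 and 272, and 302 and 285 CPM. Its 2 scramble + IgG libraries differed by 32.3% from each other, yet both lay below all shMCT-1 libraries (log2 fold change 0.47 ± 0.08, SE, adjusted p = 0.00027). Slc3a2 codes for the heavy chain that xCT and LAT1 both need at the cell surface. It ran from 276 to 312 CPM in scramble and 309 to 341 CPM in shMCT-1 libraries and narrowly missed the threshold (0.14 ± 0.06, SE, adjusted p = 0.0541).

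In serine, glycine and one-carbon metabolism, 4 of 6 genes were higher, 0 were lower and 2 were not called. The share called was 66.7%, beside 68.9% of all genes tested. Phgdh and Psph code for the first and the last enzyme of serine synthesis from a glycolytic intermediate. Psph (ENSMUSG00000029446, chromosome 5, 129765558 to 129787449, minus strand) was at 32.0 and 30.7 CPM in scramble + IgG, 36.5 and 32.9 in scramble + anti-IL-6R, 67.4 and 72.5 in shMCT-1 + IgG, and 75.3 and 62.4 in shMCT-1 + anti-IL-6R. The shMCT-1 libraries were all higher (log2 fold change 1.07 ± 0.08, SE, adjusted p = 4.36e-07). Phgdh was at 417 and 368, 437 and 421, 566 and 583, and 650.1 and 549.6 CPM, again with no overlap (0.52 ± 0.07, SE, adjusted p = 4.7e-05). Psat1, the enzyme between them, ranged from 527 to 586 CPM in scramble and 548 to 577 CPM in shMCT-1 libraries and was not called (-0.01 ± 0.06, SE, 95% interval -0.14 to 0.11). The 3 steps of the same pathway thus had different responses.

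Shmt2, the mitochondrial enzyme that splits serine into glycine and a one-carbon unit, was at 439.7 and 469, 462 and 437, 587 and 553, and 648 and 569 CPM. The shMCT-1 libraries did not overlap the others (log2 fold change 0.38 ± 0.06, SE, adjusted p = 0.000259). Mthfd2, which oxidizes the folate-bound unit next, was called higher (0.17 ± 0.05, SE, adjusted p = 0.0141) with 146 to 154 CPM in scramble and 159 to 179.6 CPM in shMCT-1 libraries. That call was lost without scramble + anti-IL-6R replicate 1, scramble + anti-IL-6R replicate 2 or shMCT-1 + IgG replicate 1 (adjusted p from 0.00913 to 0.0581 over all alternatives). Mthfd1l, which releases formate from the same chain, was not called (0.06 ± 0.05, SE, adjusted p = 0.344).

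Of the asparagine and proline enzymes, 1 of 3 was higher. Asns (ENSMUSG00000029752, chromosome 6, 7675169 to 7693254, minus strand), asparagine synthetase, is a standard reporter of ATF4 activity. It was at 162 and 152 CPM in scramble + IgG, 169.7 and 165 in scramble + anti-IL-6R, 331 and 308 in shMCT-1 + IgG, and 366 and 312 in shMCT-1 + anti-IL-6R. All shMCT-1 libraries were well above the scramble range (log2 fold change 1.02 ± 0.06, SE, adjusted p = 1.59e-07). Aldh18a1 and Pycr1 act at the start and the end of proline synthesis from glutamate. Aldh18a1 ranged from 164 to 178 CPM in scramble and 151 to 164 CPM in shMCT-1 libraries and narrowly missed the threshold (-0.13 ± 0.05, SE, adjusted p = 0.0509). Pycr1 was low, at 4.64 to 6.57 and 4.58 to 5.84 CPM, and was not called (-0.16 ± 0.14, SE, 95% interval -0.47 to 0.14).

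Of the 9 cytosolic tRNA synthetases among the members, which load amino acids onto their tRNAs, 3 were higher, 1 was lower and 5 were not called. Sars, for serine, was at 238 and 251 CPM in scramble + IgG, 247 and 239 in scramble + anti-IL-6R, 395 and 366 in shMCT-1 + IgG, and 394 and 373 in shMCT-1 + anti-IL-6R. It was higher in all shMCT-1 libraries (log2 fold change 0.65 ± 0.05, SE, adjusted p = 1.44e-06). Gars, for glycine, was at 314 and 322, 320.2 and 312, 464 and 422, and 484 and 458 CPM, with a like separation (0.53 ± 0.06, SE, adjusted p = 9.6e-06). Yars, for tyrosine, ranged from 135 to 153 and from 166 to 191 CPM and was higher by a smaller value (0.25 ± 0.06, SE, adjusted p = 0.00434). Iars, for isoleucine, was lower, at 345 and 387, 368 and 368, 272 and 243, and 246 and 293 CPM, with no overlap (-0.48 ± 0.07, SE, adjusted p = 0.000101). It lies on chromosome 13, whose 527 tested genes had a median of -0.42, so that -0.06 remained for Iars.

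Aars, Wars, Nars, Eprs and Tars, for alanine, tryptophan, asparagine, glutamate with proline, and threonine, were not called, with log2 fold changes between -0.08 and 0.12. Over all 12 members not called, the fold changes lay between -0.16 and 0.14 and their 95% intervals between -0.47 and 0.29. Wars lies on chromosome 12, where the median tested gene was at -0.35, and Eprs, at -0.08, on chromosome 1, where it was at 0.21. With the 11 other cytosolic synthetases on the list (6 higher, 0 lower), 9 of 20 were higher, 1 was lower and 10 were not called. The share called was 50%, beside 68.9% of all genes tested. Mars, for methionine, rose most among the others (0.55 ± 0.08, SE, adjusted p = 8.47e-05), then Farsa, a subunit of the phenylalanine enzyme (0.38 ± 0.07, SE, adjusted p = 0.000382). The 3 scaffold genes of the multi-synthetase complex were all called, as were 68.9% of all genes tested, with Aimp1 (0.42) and Aimp2 (0.27) higher and Eef1e1 (-0.18) lower. Eef1e1 lies on chromosome 13, where the median tested gene was at -0.42. Of 16 mitochondrial synthetases listed here, 6 were higher, 4 were lower and 6 were not called. Among these, Cars2 (0.51) and Tars2 (0.43) rose most, and Pars2 (-0.42) and Mars2 (-0.41) fell most. The plot of the synthetase genes shows both families on 1 scale.

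**Figure D4:**
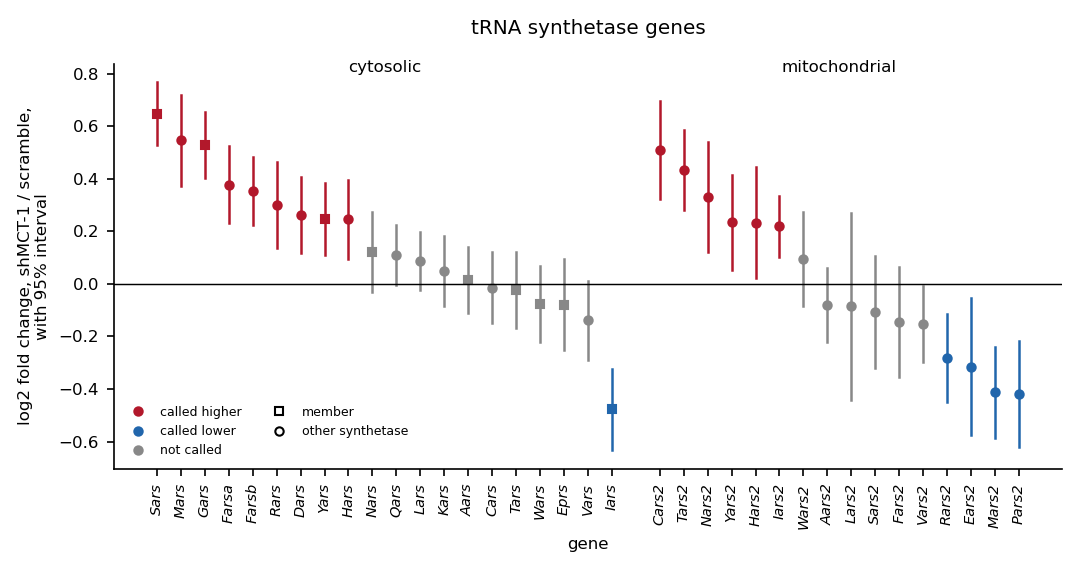
Log2 fold change of shMCT-1 over scramble across both treatments with 95% intervals (y axis) for 20 cytosolic and 16 mitochondrial tRNA synthetase genes (x axis, sorted by value). Squares are members, circles the other synthetases, and colours give the call. Cytosolic genes run from -0.48 (Iars) to 0.65 (Sars) with 9 higher and 1 lower, and mitochondrial ones from -0.42 to 0.51 with 6 higher and 4 lower.

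Levels between genes were compared only per kilobase of merged exons, as a description (mean ± SD of the 4 libraries of a background). In scramble cells Cebpb had the highest such level of the members, at 243 ± 13 CPM per kb, followed by Atf4 at 195 ± 3.65, Phgdh at 165 ± 12, Shmt2 at 145 ± 5.16 and Slc7a5 at 139.9 ± 9.01. Shmt2 and Slc7a5 did not differ beyond their spread. In shMCT-1 cells Phgdh stood first at 236 ± 17.7 CPM per kb and Atf4 next at 219.5 ± 13.6, which did not differ beyond their spread, followed by Shmt2 at 189.6 ± 13.4, Gars at 146 ± 8.2, Psat1 at 132 ± 2.86 and Asns at 120.3 ± 9.72. Cebpb was at 100.3 ± 8.13. Of the tested members, Stc2, at 0.804 ± 0.0645, had the lowest level per kb in scramble cells, while in shMCT-1 cells that was Slc7a11, at 1.12 ± 0.0704, down from 4.16 ± 0.254.

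The same question was then asked within each treatment, in comparisons that share no library, though they share the 2 lines. Within IgG, 11 members were called higher and 7 lower, against 28.3% and 26.2% of all genes. Within anti-IL-6R, 12 were higher and 10 lower, against 26.8% and 27.4% of all genes. All 24 members called across both treatments had the same sign within each, and 18 of them (11 higher and 7 lower) were called in both. Slc7a11 was at -1.88 within IgG and -1.91 within anti-IL-6R, Cebpb at -1.34 and -1.21, Asns at 1.02 and 1.02, and Stc2 at 1.95 and 2.06. These sizes were nearly equal in both treatments. Atf4 (0.20 and 0.14, adjusted p = 0.0836 and 0.203) and Mthfd2 (0.15 and 0.18, adjusted p = 0.134 and 0.0796) were called in neither. Trib3, Ddit4, Sesn2 and Yars were called within anti-IL-6R and not within IgG (Yars was also called within IgG under 5 of 17 alternatives and Sesn2 under 1), but their interaction with the antibody had an adjusted p = 1, so that no difference between the treatments was shown for them. By level, 13 members were higher and 10 lower in all 4 shMCT-1 libraries than in all 4 scramble libraries, against 33% and 31.4% of all genes tested, and 13 overlapped.

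The antibody itself was examined in each background. In scramble cells, 0 of 36 members were called by edgeR's quasi-likelihood test (0% of all genes), and 1 had an unadjusted p-value under 0.05 (1.29% of all genes). In shMCT-1 cells the counts were 0 (0%) and 2 (4.05%), and for the interaction of silencing and antibody 0 (0%) and 1 (2.55%). The edgeR exact test, which the study used, called 10 genes in scramble and 14 in shMCT-1 cells, and DESeq2 called 0 and 11, and 6 for the interaction, with 0 members among them in each case. At an unadjusted p under 0.05, the exact test held 228 genes in scramble and 420 in shMCT-1 cells, of which 2 and 1 were members. DESeq2 held 1 and 2 members at that threshold. In both backgrounds, the paper reports more genes than the exact test called here and fewer than it held without adjustment. The paper applied its own filter on low counts. Its methods name an adjusted p-value, while its figure legend names a p-value without saying that it was adjusted. The source of the difference in counts was not tested. Single libraries moved these counts. Without scramble + IgG replicate 1, the antibody in scramble cells had 1905 genes at an unadjusted p under 0.05 in place of 164, of which 6 were members, and 31 genes were called with 0 members among them. Fold changes of the members lay between -0.27 and 0.26 in scramble and between -0.28 and 0.22 in shMCT-1 cells on the log2 scale. Their 95% intervals reached from -0.53 to 0.68 and from -0.57 to 0.43, so that changes of more than 1.6-fold up in scramble and 1.35-fold up in shMCT-1 cells lay outside them.

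The smallest unadjusted p-values in scramble cells were those of Ppp1r15a, Trib3 and Slc7a5. Ppp1r15a was at 52.8 and 63.8 CPM with IgG and 46.7 and 50.1 with anti-IL-6R (log2 fold change -0.27 ± 0.12, SE, adjusted p = 1). Trib3 was at 0.24 ± 0.11 and Slc7a5 at 0.14 ± 0.09 (SE, adjusted p = 1 for both). In shMCT-1 cells they were those of Ddit4, Wars and Ddit3. Ddit4 was at 111 and 124 CPM with IgG and 100.2 and 93.3 with anti-IL-6R (-0.28 ± 0.11, SE, adjusted p = 1). Wars was at 0.22 ± 0.10 and Ddit3 at -0.27 ± 0.14 (SE, adjusted p = 1 for both). The 2 libraries with IgG and the 2 with anti-IL-6R did not overlap for Ppp1r15a or Ddit4, but an exact permutation test of 2 against 2 cannot go below p = 0.333. The interaction was furthest from 0, relative to its error, for Ppp1r15a (0.38 ± 0.17, SE, adjusted p = 1). Atf4 was at -0.02 ± 0.09 in scramble and -0.08 ± 0.09 in shMCT-1 cells (SE, adjusted p = 1 for both). No response to the antibody was thus detectable in its mRNA with 2 libraries a group.

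**Figure D5:**
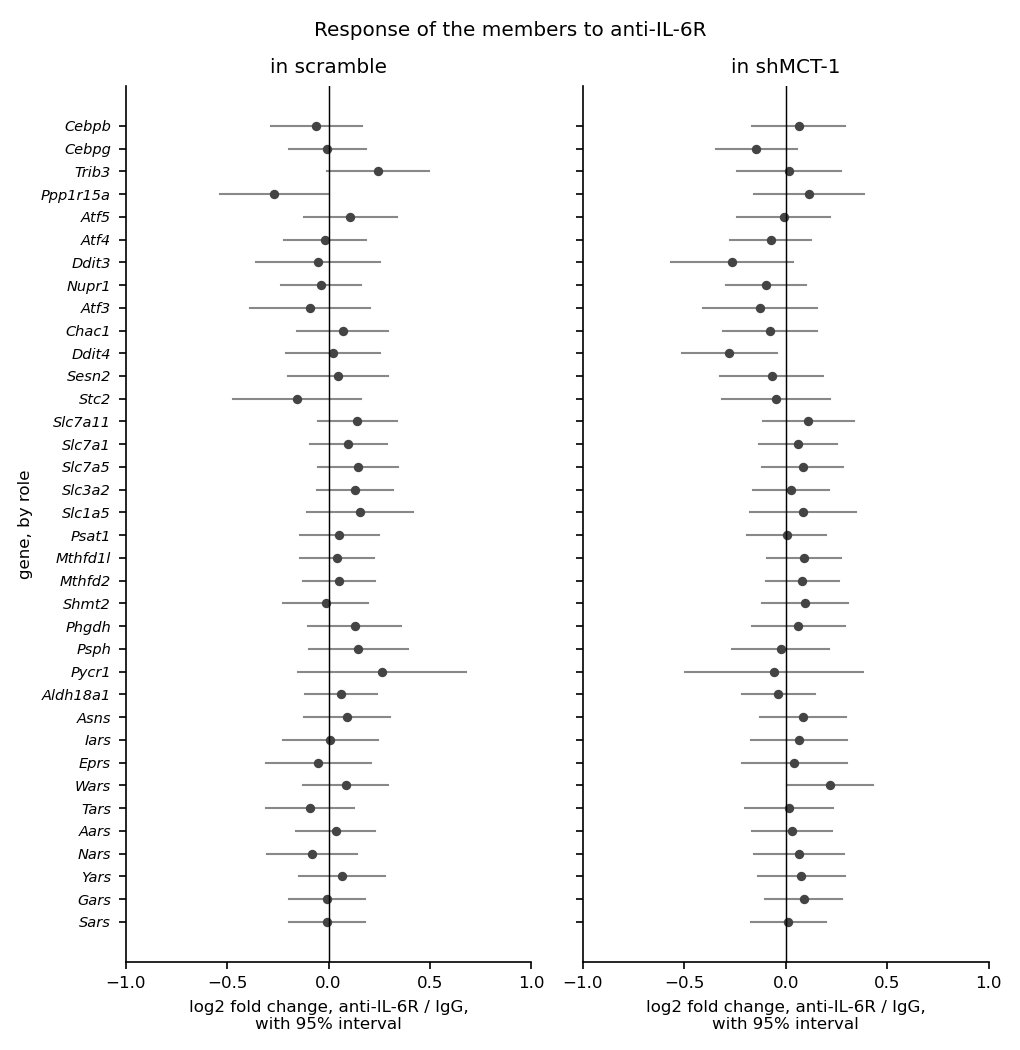
Log2 fold change of anti-IL-6R over IgG (points, x axis) with 95% intervals (lines) for the 36 tested members (y axis, by role) in scramble (left) and shMCT-1 cells (right). All points lie between -0.28 and 0.26, and 0 members were called in either background.

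The genes around the ATF4 response were examined as lists chosen by function. The 4 factors that help ribosomes start again were all called across both treatments, as were 68.9% of all genes tested. Next to Mcts1, its partner Denr rose from 99.5 ± 13.9 to 183 ± 9.3 CPM (SD, n = 4, log2 fold change 0.88 ± 0.09, SE, adjusted p = 4.38e-06). Eif2d, which codes for a protein with domains like both, rose as well (0.67 ± 0.06, SE, adjusted p = 1.61e-06). Mcts2, a retrocopy so like Mcts1 that reads may be shared between them, fell (-1.14 ± 0.07, SE, adjusted p = 2.06e-07). In scramble cells Mcts2 averaged 29.5 CPM per kb of merged exons and Mcts1 8.38. The change of either gene on its own is uncertain because reads may be shared. Mcts2 also lies on chromosome 2, where the median tested gene was at -0.37.

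Of 7 genes for the eIF2 kinases, their activators and phosphatase, 2 were higher (Eif2ak3, which codes for PERK, at 0.23, and Ppp1r15b, at 0.19), 2 were lower (Eif2ak2, for PKR, at -0.44, and Eif2ak4, for GCN2, at -0.29) and 3 were not called. Eif2ak4 lies on chromosome 2, where the median tested gene was at -0.37, and Ppp1r15b on chromosome 1, where it was at 0.21. Neither gene thus moved further than the median gene of its chromosome. Of 13 other amino acid transporters, 8 were tested, with 3 higher and 4 lower. Slc7a7 (0.71) and the glutamine carrier Slc38a1 (0.21) rose most, and Slc43a2, a carrier of large neutral amino acids (-0.99), and the glycine carrier Slc6a9 (-0.74) fell most. Slc7a7 stood near the filter, at 0.995 to 1.67 CPM in scramble and 1.86 to 2.79 CPM in shMCT-1 libraries (24 to 60 counts). Of 15 other one-carbon and amino acid enzymes listed here, 11 were tested, with 5 higher, 1 lower and 5 not called. Glul, glutamine synthetase, rose from 25.5 ± 0.674 to 72.0 ± 2.94 CPM (SD, n = 4, log2 fold change 1.50 ± 0.06, SE, adjusted p = 5.5e-09), and Pycrl, a proline synthesis enzyme, rose from 32.7 ± 3.38 to 48.0 ± 3.84 CPM (0.55 ± 0.09, SE, adjusted p = 0.000147). Mthfd1, the cytosolic one-carbon enzyme, fell (-0.40 ± 0.05, SE, adjusted p = 3.57e-05). It lies on chromosome 12, where the median tested gene was at -0.35. Of 11 other genes reported as ATF4 targets, 9 were tested, with 7 higher, 1 lower and 1 not called. The oxidase gene Ero1l (0.40) and Eif4ebp1, for an inhibitor of cap-dependent translation (0.39), rose most, and the tRNA exporter Xpot fell (-0.27). Over all these lists, 33 of 69 tested genes were higher, 15 lower and 21 not called, a share of 69.6% called beside 68.9% of all genes. By direction, 34.9% of all genes tested were higher and 34% lower.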

How the data were processed

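The submitters' processing notes name cutadapt 1.18, STAR 2.7.0d, RSEM and mm10. The authors deposited RSEM expected counts per gene (GENCODE release 19), which are not normalized for depth or length, and 29.6% of those above 0 were not whole. They were rounded here. The libraries carried molecular identifiers, and whether reads were collapsed on them is not given in the sources used here. Coordinates and exon lengths came from GENCODE M21 on GRCm38, which holds 54495 of the 54532 identifiers. In edgeR 4.0.16 under R 4.3.3, genes over 1 CPM in at least 2 libraries were kept, scaled by TMM and tested by the robust quasi-likelihood test, with 95% intervals. Silencing across both treatments came from an additive model, and the other comparisons from 4 group means fitted to all 8 libraries. Alternatives were RLE size factors, DESeq2 1.42.0, the edgeR exact test, a fit of the 4 libraries compared, other filters, unrounded or thinned counts, the replicate block, subtraction of chromosome medians and leaving out each library. Replicates of a group differed by more than counting noise (chi-square per degree of freedom 4.06 to 25.8), so none was taken as a repeat deposit. Counting intervals and the floor of 3 counts cover counting error only.

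Members and lists were chosen with earlier results of these data known. Values per library are given for Atf4, Mcts1, the called members with the largest changes in each group (up to 3), and Ddit3, Trib3, Chac1, Asns and Slc7a11. Of each other list, up to 2 called genes in each direction are named. For the antibody, the 3 members with the smallest p-values per background are named. A few listed genes and 1 promoter window are not reported here.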

Additional observations from a re-analysis of the deposited data

How the results depend on the processing

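Of the 24 members called across both treatments, 22 kept their call and direction under all 15 alternatives with a test, the exceptions being Atf4 and Mthfd2. Leaving out each library in turn gave 12 to 15 members called higher and 10 to 11 lower across both treatments, 10 to 12 and 6 to 8 within IgG, 9 to 13 and 7 to 11 within anti-IL-6R, and 0 for the antibody and the interaction. The other alternatives gave 14 to 15 and 10 to 11 across both treatments. The median of the members ranged without single libraries from -0.00791 to 0.0835 within IgG, from 0.0533 to 0.127 within anti-IL-6R, from -0.0187 to 0.0722 for anti-IL-6R in shMCT-1 cells and from -0.0582 to 0.0267 for the interaction. Less the chromosome median it was -0.0199 within anti-IL-6R, and Trib3 then reversed to 0.0515 across both treatments. Members near 0 changed sign. Ppp1r15a was at -0.00921 with RLE size factors and -0.00944 with DESeq2, and ranged from -0.058 to 0.0951 without single libraries. Psat1 was at 0.00109 without a filter and 0.00713 with filterByExpr, and ranged from -0.048 to 0.00866 without single libraries. Aars ranged from -0.0133 to 0.0382 and Tars from -0.0645 to 0.0333. The cause of these changes was not tested. Slc3a2 passed the threshold under 3 alternatives, Aldh18a1 under 6, and Nars without scramble + IgG replicate 2, where it was at 0.19 (adjusted p = 0.00414). Within anti-IL-6R, leaving out scramble + anti-IL-6R replicate 1 ended the calls of Ddit3, Sesn2, Slc1a5, Slc7a5, Trib3 and Yars, leaving out replicate 2 of that group ended those of the same genes except Trib3, and leaving out shMCT-1 + anti-IL-6R replicate 2 ended that of Trib3. In all, Sesn2 lost this call under 10 of 17 alternatives, Yars under 7, Ddit3 under 5 and each of the others under 2. Over all alternatives their highest edgeR or DESeq2 adjusted p-values were 0.126, 0.201, 0.0702, 0.0931, 0.0623 and 0.241 in the same order. Within IgG, Yars gained a call under 5 alternatives (adjusted p down to 0.0249) and Sesn2 without scramble + IgG replicate 2 (0.0405), Slc7a5 was no longer called under 8 alternatives (adjusted p up to 0.253) and Shmt2 without shMCT-1 + IgG replicate 1 (0.0973). Replicate numbers did not pair the libraries (correlations of same-numbered deviations from -0.0797 to 0.106), and the replicate block gave 15 members higher and 11 lower across both treatments, the additional ones being Slc3a2 and Aldh18a1, and 12 higher within IgG with Yars. For the antibody, without scramble + IgG replicate 1, the interaction had 1407 genes at an unadjusted p under 0.05 in place of 324, with 3 members in place of 1, and 9 genes called. Without single libraries, the genes under that p ranged from 48 to 1905 in scramble cells, from 179 to 1327 in shMCT-1 cells and from 132 to 1407 for the interaction, with 0 members called. With no filter on low counts, 12, 58 and 24 genes were called, again with 0 members. With 2 libraries a group, small responses to the antibody could not be seen.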
